A study of Arabidopsis thaliana with 12 samples.

Results

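Early subjective night was compared with early subjective day in Arabidopsis seedlings that were kept in constant white light. The night side consisted of the 4 arrays at circadian times CT12 and CT16 (36, 40, 60 and 64 h in constant light), and the day side of the 4 arrays at CT0 and CT4 (24, 28, 48 and 52 h). Circadian time (CT) counts hours from subjective dawn, the time at which the lights would have come on. These 8 arrays were chosen by their times from 12 in all. The other 4, at CT8 and CT20, did not enter the comparison, and their values are given only as a description.

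All samples were whole wild-type Col-0 seedlings with a CCR2::LUCIFERASE transgene, a luciferase reporter driven by the promoter of a clock-controlled gene. Before sampling, seedlings had been entrained for 7 d in 12 h of light and 12 h of dark at 22 °C on medium with 3% sucrose. RNA of each harvest was hybridized to 1 Affymetrix ATH1 array, so no combination of circadian time and cycle was replicated, and each side pooled 2 circadian times in each of 2 cycles. The labels do not say how many seedlings made up a harvest or whether harvests came from separate cultures, and p-values therefore measured only the spread between these arrays. In whole seedlings, fewer cells of a type and less RNA per cell cannot be told apart.

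The circadian clock of plants is a loop of genes that repress one another in sequence, from morning-expressed to evening-expressed members, and it goes on running when light and temperature are constant. Through promoter elements bound by clock proteins, it sets the time of day at which many other genes are transcribed, among them genes of photosynthesis, starch metabolism, growth and cold tolerance. A comparison of dusk and early night with dawn and morning separates transcripts that build up in the evening from those that build up in the morning, although the light was the same on all arrays.

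The deposited values were intensities on a linear scale, already scaled between arrays, with medians of 149.9 to 153.6 over the 12 arrays. Log2 values of the 8 compared arrays correlated at 0.981 to 0.992, and no array stood apart. The median log2 level of the tested genes was 7.627 on the night side and 7.622 on the day side (exact permutation test over 70 assignments, two-sided, p = 0.457, n = 4 and 4; smallest possible p = 0.0286). Root and leaf transcripts were both present, as in whole seedlings: the root gene PYK10 lay between 9081 and 10841 on the 8 compared arrays and RCA, encoding the leaf enzyme Rubisco activase, between 7618 and 12782. The 3 tested root markers differed between sides by -0.09 to -0.08 on the log2 scale, none past the threshold. The arrays were scanned on 3 days: the first held 36 and 40 h of the night side and 24, 48 and 52 h of the day side, the second held 60 and 64 h, and 28 h was scanned alone.

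Of 9161 tested genes, 339 (3.70%) differed between the sides at an adjusted p under 0.05 (limma, Benjamini-Hochberg over all tested genes). Early night was higher for 147 genes (1.60%) and early day for 192 (2.10%). The median change was 1.35-fold on either side, and most differences were small: 12 night genes and 16 day genes differed by 2-fold or more. All 4 night arrays lay above all 4 day arrays for 143 of the 147 night genes, and all 4 day arrays above all night arrays for 180 of the 192 day genes. Over all tested genes, such a complete separation was found for 6.48% in the night direction and 5.50% in the day direction. Only 24 of the night genes and 30 of the day genes have a gene symbol in the annotation used here. The rest carry locus names, for which it gives no function, so they are described by their values alone.

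The number of genes past the threshold depended on a few arrays and on the scan. It fell to 118 without the 28 h array, to 161 without the 60 h array and to 218 without the 64 h array, and within the first scan day (3 day and 2 night arrays) it was 28. With scan day as a block it was 37. These fits also had fewer arrays or more model terms, and the part of the scan in the lower counts was not tested. The median difference within the first scan day was 1.29-fold for the night genes and 1.36-fold for the day genes. These arrays had also chosen the genes, most of them without overlap between the sides, so their direction there was fixed by the choice.

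**Figure D1:**
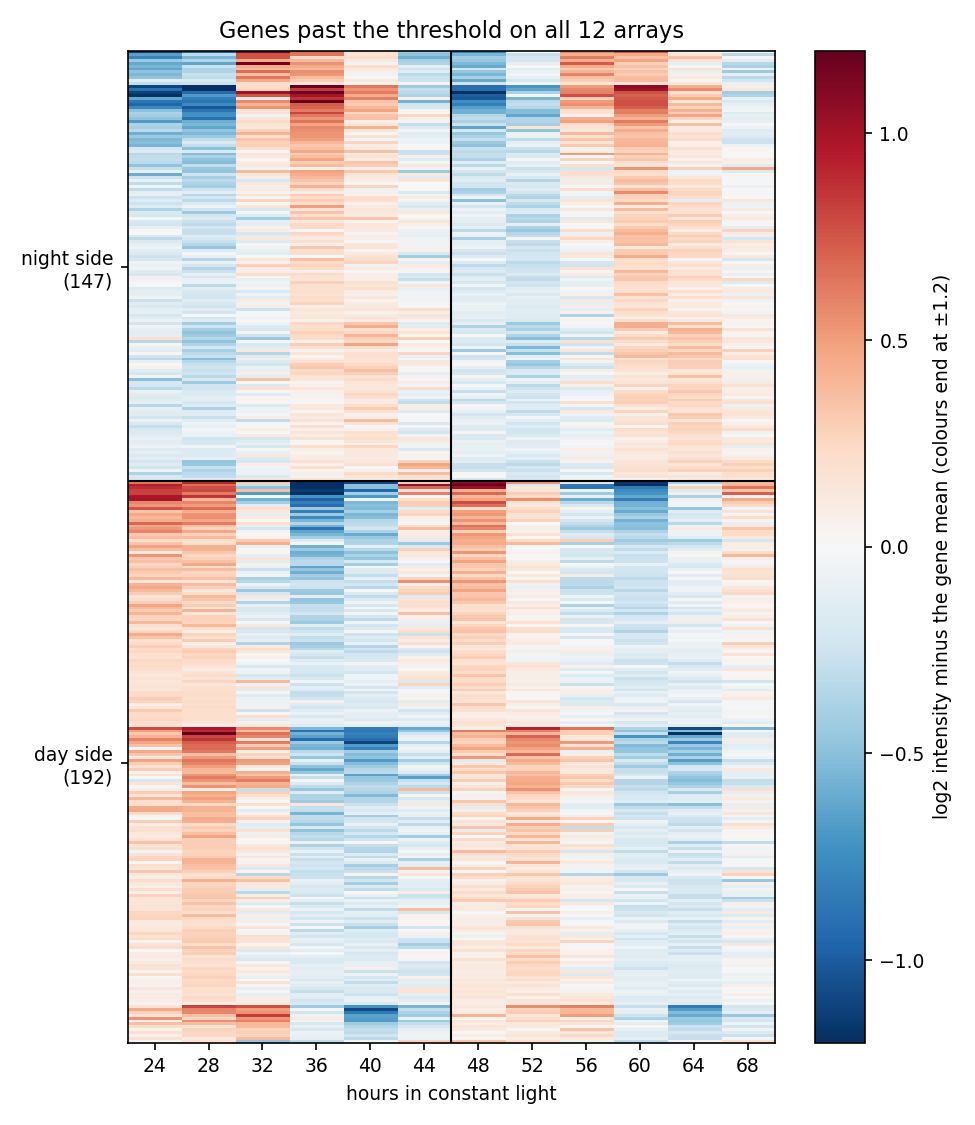
Log2 intensity of the 339 genes past the threshold on each of the 12 arrays (columns, hours in constant light), centred on each gene's mean. The 147 night-side genes are above the line and the 192 day-side genes below it, each ordered by the circadian time of their highest mean. The first cycle is left of the vertical line and the second is right of it. Both cycles entered the choice of the genes, so their likeness at the compared times follows in part from it.

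The largest difference on the night side was that of COR27, encoding a cold-regulated protein that acts on the clock. It had intensities of 393 at 36 h, 219.9 at 40 h, 298 at 60 h and 190.4 at 64 h. On the day side it measured 65.3 at 24 h, 59.2 at 28 h, 75.4 at 48 h and 86.7 at 52 h. Every night value was above every day value, and the CT12 array was the highest in each cycle. The difference was 1.90 ± 0.19 (SE, log2 scale), or 3.73-fold (adjusted p = 0.000412). AT4G33980, a locus with no symbol here that was listed with COR27 as an evening gene, measured 209 at 36 h, 168 at 40 h, 239 at 60 h and 173 at 64 h in early night against 62.9 at 24 h, 50.8 at 28 h, 62.2 at 48 h and 75.4 at 52 h in early day. The sides were again separate and the CT12 array again the highest of each cycle. The difference was 1.65 ± 0.13 (SE, log2 scale), or 3.14-fold (adjusted p = 6.02e-05). These were the 2 tested genes of the evening list, which held 5, and their median difference was 1.78. Both were higher in early night, beside 1.60% of all tested genes. The list was written with earlier results of these data known, so this count is only a description. Outside the comparison COR27 was at 163 and 202 at CT8 and at 105 and 149.8 at CT20, and AT4G33980 was at 138 and 174 at CT8. The CT8 value of the second cycle was within the early-night range for both genes, and that of the first cycle lay between the sides.

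Most other large night-side changes belonged to loci without a symbol. AT4G32340 measured 1988 at 36 h, 1339 at 40 h, 1483 at 60 h and 1000.5 at 64 h on the night side and 402 at 24 h, 462 at 28 h, 384 at 48 h and 671 at 52 h on the day side, a difference of 1.59 ± 0.20 (SE, log2 scale), or 3.01-fold (adjusted p = 0.00186). AT4G34950 measured 980.5 at 36 h, 820.3 at 40 h, 908 at 60 h and 739 at 64 h on the night side and 351 at 24 h, 305 at 28 h, 267 at 48 h and 368 at 52 h on the day side, a difference of 1.42 ± 0.11 (SE, log2 scale), or 2.68-fold (adjusted p = 6.02e-05). In both genes the lowest night array was well above the highest day array. AT4G30650, AT1G21680, AT4G16146, AT1G56300 and AT5G62720 were 2.06-fold to 2.50-fold higher in early night, with no overlap between sides. AT3G04550 and AT1G12845, at 1.81-fold and 1.72-fold, completed the 15 largest without overlap, which was a condition of the choice. Of these, AT1G56300 lost the threshold without the 28 h array (adjusted p = 0.0691) or the 60 h array (0.0546).

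CCL (CCR-LIKE), a clock-controlled gene known for its unstable mRNA, was among the 5 largest differences of the night side. It measured 5869 at 36 h, 4009 at 40 h, 4822 at 60 h and 3617 at 64 h in early night and 976 at 24 h, 1836 at 28 h, 1476 at 48 h and 2989.9 at 52 h in early day. The sides did not overlap, but the day side itself spanned a wide range, from CT0 of the first cycle to CT4 of the second. The difference was 1.42 ± 0.27 (SE, log2 scale), or 2.68-fold (adjusted p = 0.0138), and 0.0657 was its adjusted p with a linear trend in hours.

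**Figure D2:**
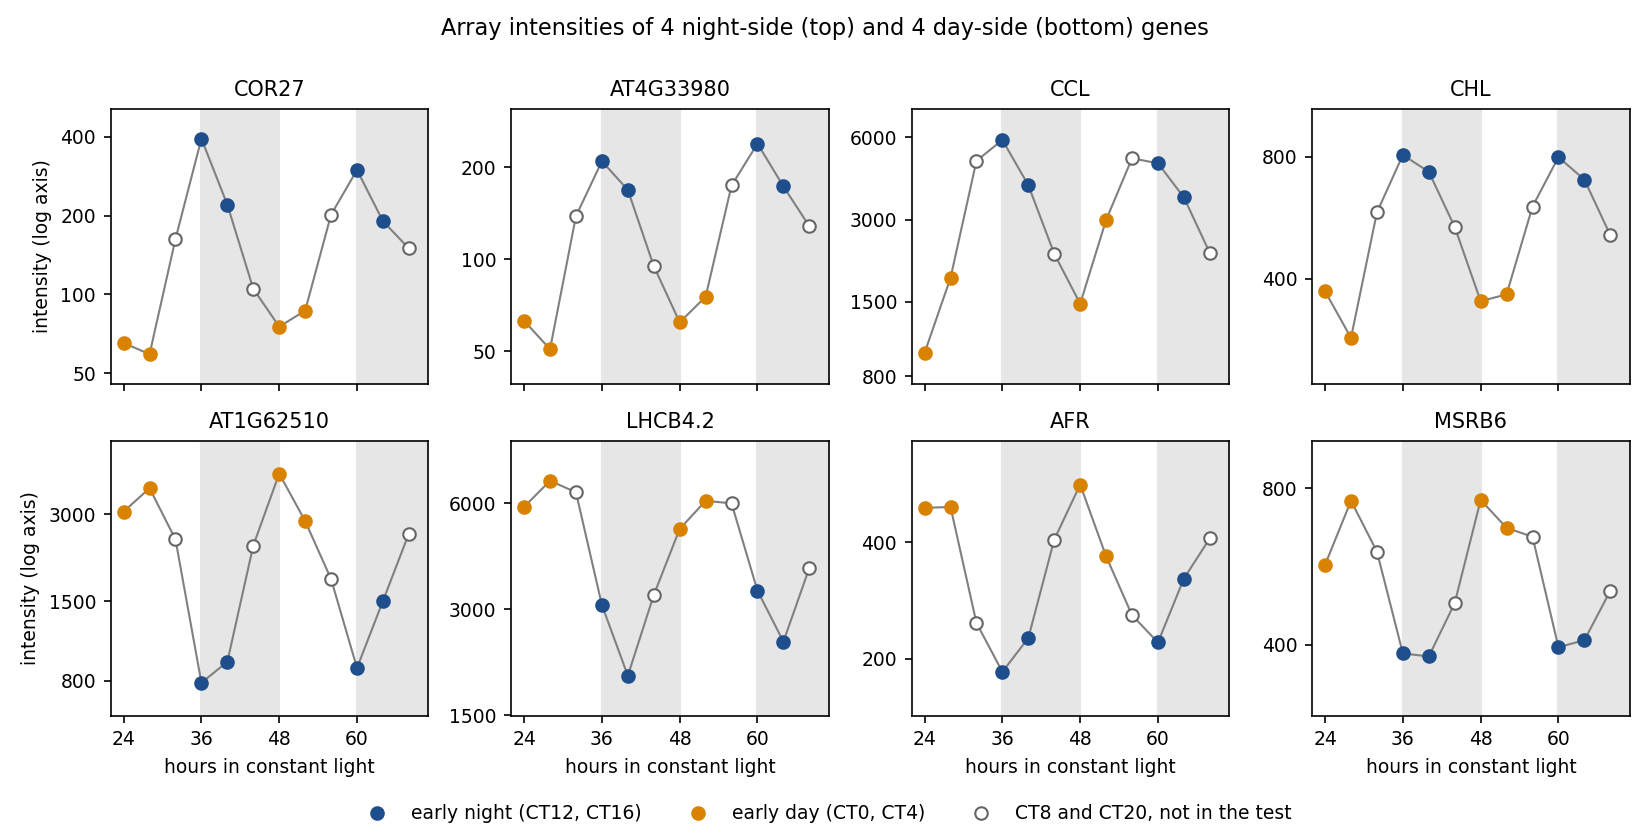
Intensity (log axis) of 4 night-side genes (top row) and 4 day-side genes (bottom row) against hours in constant light. Filled points are the compared arrays, open points are CT8 and CT20, and grey bands mark subjective night. In each panel the blue and orange points do not overlap.

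Enzymes and a lipocalin with a symbol were also higher in early night. CHL, encoding a lipocalin of the chloroplast that protects its membrane lipids, measured 807 at 36 h, 734 at 40 h, 798 at 60 h and 702 at 64 h in early night and 372 at 24 h, 286 at 28 h, 352 at 48 h and 366 at 52 h in early day. Its night arrays lay close together and its day arrays far below them, with a difference of 1.15 ± 0.090 (SE, log2 scale), or 2.22-fold (adjusted p = 6.02e-05). THIC, which makes the pyrimidine part of thiamin, measured 3498 at 36 h, 2865 at 40 h, 3205 at 60 h and 3151 at 64 h in early night against 1691 at 24 h, 1368 at 28 h, 1786 at 48 h and 1470.4 at 52 h in early day. Again no value of 1 side reached the other, and the difference was 1.01 ± 0.093 (SE, log2 scale), or 2.02-fold (adjusted p = 0.000172). MAP1C, a methionine aminopeptidase that trims the first residue of new proteins, was at 368 to 476 in early night and 229.5 to 279 in early day, or 1.70-fold (adjusted p = 0.00116).

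The starch breakdown list held 14 genes, of which 2 were tested. Both were higher in early night, beside 1.60% of all tested genes, with a median difference of 0.78. The list was written with earlier results of these data known, so this count describes 2 genes and not starch breakdown as a whole. In the plastid, starch granules are phosphorylated, opened and cut to glucose and maltose, mainly at night. PWD (AT5G26570), the phosphoglucan water dikinase that adds phosphate to the granule, measured 1112 at 36 h, 984 at 40 h, 1023 at 60 h and 914 at 64 h on the night side. On the day side it measured 552 at 24 h, 414 at 28 h, 623 at 48 h and 598 at 52 h, all lower. The difference was 0.90 ± 0.12 (SE, log2 scale), or 1.86-fold (adjusted p = 0.00221). DPE1, the disproportionating enzyme that acts on short glucans, measured 492 at 36 h, 410.3 at 40 h, 523 at 60 h and 418 at 64 h in early night and 276 at 24 h, 293 at 28 h, 275 at 48 h and 322 at 52 h in early day. These ranges were also separate, with a difference of 0.66 ± 0.091 (SE, log2 scale), or 1.58-fold (adjusted p = 0.00261), and DPE1 was as high at CT8 (514 and 507) as in early night. The threshold was not passed with scan day as a block, where the adjusted p of DPE1 was 0.0921, whereas that of PWD was 0.0103. APL3, a subunit of the enzyme that starts starch synthesis, was the only tested member of that list and differed by -0.12 ± 0.10 (SE; adjusted p = 0.551).

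On the day side, AT1G62510 showed the largest change. It measured 3060.2 at 24 h, 3684 at 28 h, 4136 at 48 h and 2838 at 52 h in early day and 786 at 36 h, 928 at 40 h, 884 at 60 h and 1505 at 64 h in early night. The sides did not overlap, and the CT12 arrays were the lowest in each cycle. The difference was -1.77 ± 0.18 (SE, log2 scale), or 3.42-fold (adjusted p = 0.000412). AT2G41250 measured 642 at 24 h, 850.0 at 28 h, 698 at 48 h and 689.9 at 52 h on the day side and 246 at 36 h, 252 at 40 h, 327 at 60 h and 319 at 64 h on the night side, a difference of -1.34 ± 0.11 (SE, log2 scale), or 2.53-fold (adjusted p = 8.98e-05). AT5G48490 was 2.63-fold higher in early day and AT5G35970 2.47-fold. The loci named here were taken from the genes without overlap, so their separation was fixed by that choice. Among genes with overlap, SAG29 (2.86-fold) and AT2G15020 (2.63-fold) differed by as much as AT5G48490 or more. The other loci among the 15 largest without overlap, AT1G69160, AT1G30455, AT1G64500, AT1G13650, AT1G55960, AT1G65490, AT5G57345, AT1G73480 and AT5G16030, were 1.97-fold to 2.45-fold higher. Among them AT1G64500 lost the threshold without the 24, 28 or 60 h array, with adjusted p of 0.0556, 0.0769 and 0.0685.

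The light-harvesting gene LHCB4.2 was higher in early day. Light-harvesting antennae pass excitation energy to photosystem II and photosystem I, which drive electron transport in the thylakoid membrane. LHCB4.2 encodes an isoform of the minor photosystem II antenna CP29 and measured 5862 at 24 h, 6951 at 28 h, 5074 at 48 h and 6096 at 52 h in early day. In early night it measured 3087 at 36 h, 1945 at 40 h, 3389 at 60 h and 2430.0 at 64 h, and the CT16 array was the lowest of each cycle. The difference was -1.17 ± 0.15 (SE, log2 scale), or 2.25-fold (adjusted p = 0.00221). Of the 2 other isoforms tested, LHCB4.1 differed by -0.32 ± 0.11 (SE; adjusted p = 0.137) and LHCB4.3 by -0.04 ± 0.19 (SE; adjusted p = 0.932), neither past the threshold. LHCB4.3 was not constant: it was at 467 and 388 at CT0, 322 and 294 at CT4, 257.5 and 293 at CT12, and 428 and 476 at CT16. Thus 1 of 3 tested antenna genes was higher in early day, beside 2.10% of all tested genes. The list's median difference was -0.32, beside 0.016 over all tested genes.

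Of 3 tested photosystem subunits that the list matched, 2 were higher in early day, beside 2.10% of all tested genes, and the median was -0.35. PSAN, a lumenal subunit of photosystem I, measured 3442 at 24 h, 3853 at 28 h, 2227 at 48 h and 3393 at 52 h in early day and 2307 at 36 h, 1535 at 40 h, 2162 at 60 h and 1553 at 64 h in early night. The sides overlapped, because the 36 h array was above the 48 h array. The difference was -0.77 ± 0.17 (SE, log2 scale), or 1.70-fold (adjusted p = 0.0324). PSBW, a small subunit of photosystem II, differed by -0.33 ± 0.075 (SE, log2 scale), or 1.26-fold (adjusted p = 0.0345), and the third, PSBY, by -0.35 ± 0.098 (SE; adjusted p = 0.0692). Neither call held without the 28 h array, where the adjusted p was 0.11 for PSAN and 0.113 for PSBW, and leaving out 24, 40, 52, 60 or 64 h also took each past 0.05. PSAE-1, a stromal subunit of photosystem I that was picked after its values were seen, differed by -0.34 ± 0.085 (SE, log2 scale), or 1.27-fold (adjusted p = 0.0453), and 7 of the 8 arrays left out in turn (all but 36 h) took it past the threshold.

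No tested gene of the Calvin cycle list (3 of 19 written) or of the chlorophyll and carotenoid list (4 of 19) passed the threshold. The other genes of these lists were not tested, so the values do not describe carbon fixation or pigment synthesis as a whole. RCA, which keeps Rubisco active, measured 12782 at 24 h, 11633 at 28 h, 12126 at 48 h and 9722 at 52 h in early day and 7618 at 36 h, 9463 at 40 h, 8752 at 60 h and 9558 at 64 h in early night. The lowest day value lay just above the highest night value, and the difference was -0.38 ± 0.098 (SE, log2 scale), or 1.31-fold (adjusted p = 0.0522). Without the 52 h array its adjusted p was 0.0167. PRK, the kinase that regenerates the acceptor of carbon dioxide, differed by -0.05 ± 0.078 (SE; adjusted p = 0.76), and the median of the 3 tested Calvin cycle genes was -0.05. In chlorophyll and carotenoid synthesis none of 4 was past the threshold and the median was 0.03, with PORB, a light-dependent step of chlorophyll synthesis, at 0.39 ± 0.21 (SE; adjusted p = 0.322) and the methyltransferase CHLM at -0.11 ± 0.090 (SE; adjusted p = 0.535).

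Regulators and redox enzymes with a symbol were also found on the day side. AFR, an F-box protein of phytochrome A signaling in far-red light, measured 491 at 24 h, 494 at 28 h, 565 at 48 h and 368 at 52 h in early day and 185 at 36 h, 226 at 40 h, 220.2 at 60 h and 322 at 64 h in early night. The ranges were separate, and the difference was -1.02 ± 0.16 (SE, log2 scale), or 2.03-fold (adjusted p = 0.00646). MSRB6, a methionine sulfoxide reductase that repairs oxidized proteins, measured 569.8 at 24 h, 756 at 28 h, 759 at 48 h and 671 at 52 h in early day and 385 at 36 h, 379.9 at 40 h, 396 at 60 h and 408 at 64 h in early night. Its night values lay in a narrow band below all day values, with a difference of -0.80 ± 0.090 (SE, log2 scale), or 1.75-fold (adjusted p = 0.00093). ATHSP22.0, a small heat shock protein, was 1.40-fold higher in early day (adjusted p = 0.0123). On the night side Fes1B, an exchange factor for Hsp70 chaperones, was 1.49-fold higher (adjusted p = 0.0324), a call that was lost without any one of the 24, 28, 36, 48 or 60 h arrays (highest adjusted p = 0.102, without 28 h).

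Among 23 tested genes of cell wall growth, 1 was higher in early day and none in early night, or 4.35% in all beside 3.70% of all tested genes. XTH32, of the xyloglucan endotransglucosylase family that remodels wall polymers, measured 853 at 24 h, 817 at 28 h, 694 at 48 h and 527 at 52 h in early day and 415 at 36 h, 426 at 40 h, 375 at 60 h and 421 at 64 h in early night. All day arrays were above all night arrays, with a difference of -0.80 ± 0.13 (SE, log2 scale), or 1.74-fold (adjusted p = 0.00705). The list's median was -0.08. The expansins EXPB3 and EXPA15, which loosen cell walls, differed by -0.33 ± 0.10 (SE; adjusted p = 0.087) and -0.15 ± 0.11 (SE; adjusted p = 0.482).

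Sugar transporters of the SWEET family and their relatives were represented by 14 tested genes, of which 2 were higher in early day (14.3%, beside 2.10% of all tested genes in that direction) and the median was -0.05. The list was matched by name and 1 of the 14, SWEETIE, is not a transporter of the family. SAG29 (SWEET15), which exports sucrose, measured 1735 at 24 h, 1436 at 28 h, 2489 at 48 h and 786 at 52 h in early day and 388 at 36 h, 636 at 40 h, 349 at 60 h and 846 at 64 h in early night. Its sides overlapped, with 64 h above 52 h, and CT4 of the second cycle was far below CT0. The difference was -1.52 ± 0.33 (SE, log2 scale), or 2.86-fold (adjusted p = 0.0277), and it did not pass the threshold without the 60 h array (adjusted p = 0.0851) or without 24, 28, 36 or 48 h. SWEET14 was 1.25-fold higher in early day (adjusted p = 0.0378), and leaving out 24, 28, 36, 48, 60 or 64 h ended that call (highest adjusted p = 0.11). SWEET11 and SWEET17 differed by 0.25 ± 0.076 (SE; adjusted p = 0.0896) and -0.33 ± 0.097 (SE; adjusted p = 0.0849).

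Glycosyltransferases of the UGT family, which attach sugars to hormones and secondary metabolites, went in both directions. Of 43 tested, 3 were higher in early night (UGT85A5, UGT84A3 and UGT73C1) and 2 in early day (UGT74D1 and UGT88A1), 11.6% in all against 3.70% of all tested genes, and the median difference was 0.00. UGT84A3 measured 247 at 36 h, 248 at 40 h, 258 at 60 h and 245 at 64 h in early night against 178 at 24 h, 185 at 28 h, 204 at 48 h and 164 at 52 h in early day. Its ranges did not overlap, and the difference was 0.45 ± 0.072 (SE, log2 scale), or 1.37-fold (adjusted p = 0.00705). UGT85A5 was 1.41-fold and UGT73C1 1.27-fold higher in early night. Each lost the threshold when any of 6 arrays was left out (28, 36, 48 and 60 h for both, with 24 and 40 h for UGT85A5 and 52 and 64 h for UGT73C1), up to an adjusted p of 0.112 and 0.102, both without 60 h. On the other side UGT74D1, which glucosylates auxin metabolites, measured 442 at 24 h, 413 at 28 h, 455 at 48 h and 408 at 52 h in early day and 235 at 36 h, 355 at 40 h, 307 at 60 h and 311 at 64 h in early night. No night array reached the day range. The difference was -0.52 ± 0.11 (SE, log2 scale), or 1.44-fold (adjusted p = 0.0204), and the call ended without the 24, 28 or 60 h array (adjusted p of 0.0509, 0.0638 and 0.0532). UGT88A1 was 1.36-fold higher in early day (adjusted p = 0.00742).

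Beta-glucosidases release sugars from stored conjugates, and 2 of 12 tested were higher in early day (16.7%, beside 2.10% of all tested genes in that direction), with a median of -0.06 for the list. BGLU40 measured 416 at 24 h, 403 at 28 h, 477 at 48 h and 378 at 52 h in early day and 227 at 36 h, 218 at 40 h, 273 at 60 h and 317 at 64 h in early night. The sides were separate, with a difference of -0.70 ± 0.12 (SE, log2 scale), or 1.63-fold (adjusted p = 0.00783). BGLU19 was 1.25-fold higher (adjusted p = 0.0468), a call that ended without 24, 28, 40, 52, 60 or 64 h (highest adjusted p = 0.14, without 28 h). BGLU44 differed by 0.51 ± 0.18 (SE; adjusted p = 0.13) in the other direction without passing the threshold.

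**Figure D3:**
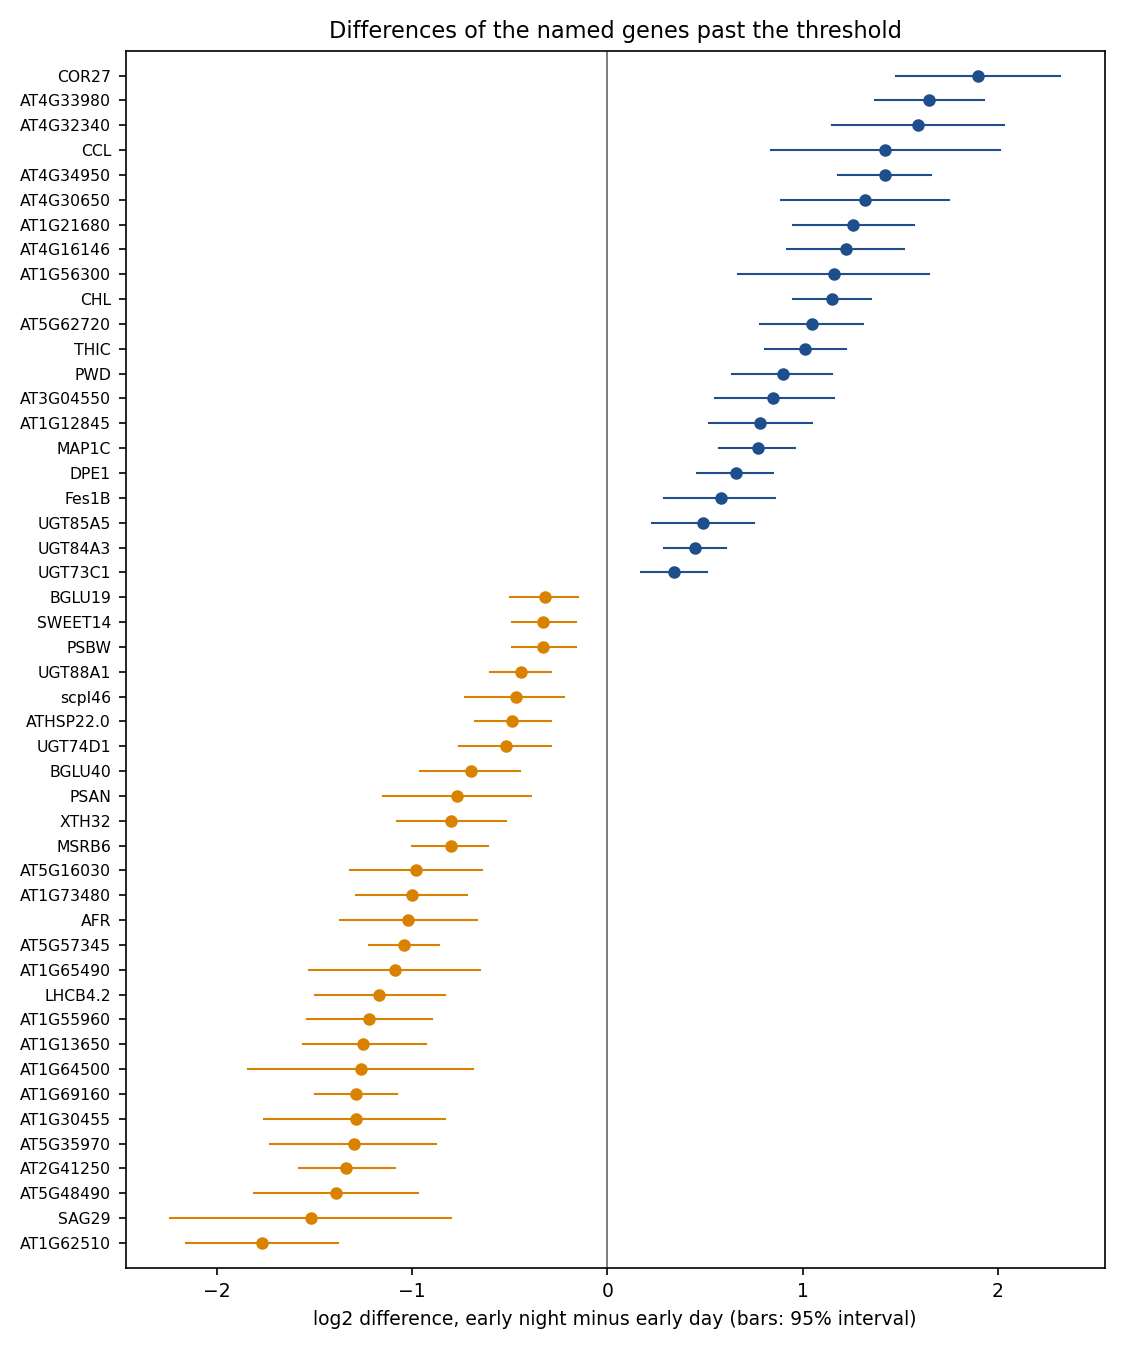
Log2 difference, early night minus early day, with its 95% interval from the limma fit, for 48 named genes past the threshold, 21 higher in early night (blue) and 27 higher in early day (orange). The largest are COR27 at 1.90 and AT1G62510 at -1.77.

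The clock list was represented by 2 tested genes, neither past the threshold, with a median of 0.28. The list held 30 genes, and the rest had no probe set named for 1 gene here and were not analysed, so these values describe 2 genes and not the clock. GI (GIGANTEA), an evening gene that joins the clock to flowering and light signaling, measured 682 at 36 h, 433 at 40 h, 575 at 60 h and 422 at 64 h in early night and 244 at 24 h, 324 at 28 h, 283 at 48 h and 447 at 52 h in early day. The 36 and 60 h arrays stood above every day array, while 40 and 64 h lay below the 52 h array. The difference was 0.71 ± 0.19 (SE, log2 scale), or 1.63-fold (adjusted p = 0.0578), with 0.0124 as the adjusted p without the 52 h array. GI was highest at CT8 (702 and 613), a time outside the comparison. AT5G52660 differed by -0.15 ± 0.12 (SE; adjusted p = 0.533).

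Of 4 tested genes of the cold-response list none passed the threshold, beside 3.70% of all tested genes. COR27, described above as cold-regulated, was on the evening list and is not counted here. All 4 differences of the cold-response list were above 0, beside 54.8% of all tested genes, with a median of 0.76. COR15A, a protective protein of the chloroplast stroma, measured 3134 at 36 h, 823 at 40 h, 2031 at 60 h and 844 at 64 h in early night and 408 at 24 h, 755 at 28 h, 646 at 48 h and 932 at 52 h in early day. Among the compared arrays, those at CT12 were far above the rest, while the CT16 arrays were within the day range. At CT8, outside the comparison, COR15A was at 2611 and 2554, and its mean was highest there. The difference was 1.14 ± 0.39 (SE, log2 scale), or 2.21-fold (adjusted p = 0.124). COR47, a dehydrin, differed by 0.20 ± 0.10 (SE; adjusted p = 0.282). In phenylpropanoid and flavonoid synthesis neither of 2 tested genes passed and the median was -0.42, with DFR, a step of anthocyanin synthesis, at -0.77 ± 0.33 (SE; adjusted p = 0.21) and HCT, a step of lignin synthesis, at -0.08 ± 0.064 (SE; adjusted p = 0.539).

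No member of the hormone lists passed the threshold. The 5 tested gibberellin genes had a median of 0.14, among them SPY, a repressor of gibberellin responses, at 0.20 ± 0.063 (SE; adjusted p = 0.1), and the F-box gene SLY1 at -0.10 ± 0.065 (SE; adjusted p = 0.425). The 5 of ethylene, jasmonate and brassinosteroid signaling had a median of -0.01, with EIN3 at -0.04 ± 0.067 (SE; adjusted p = 0.787) and MYC3 at 0.07 ± 0.094 (SE; adjusted p = 0.717). Over all tested genes 54.8% were above 0. In the auxin list, 4 genes were tested and all 4 were below 0, between -0.21 and -0.02 with a median of -0.11. Of these, GH3.17 and WES1, which conjugate auxin to amino acids, differed by -0.21 ± 0.089 (SE; adjusted p = 0.22) and -0.18 ± 0.12 (SE; adjusted p = 0.455). HYH, the 1 tested gene of the light-signaling list and a transcription factor of that pathway, differed by -0.60 ± 0.17 (SE; adjusted p = 0.067), and its adjusted p was 0.0112 without the 52 h array.

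Lists of general cell functions also held no gene past the threshold. Among 11 tested autophagy genes the median was -0.10, with ATG8F at -0.17 ± 0.093 (SE; adjusted p = 0.323) and APG8H at -0.06 ± 0.077 (SE; adjusted p = 0.718). Among 5 histone genes it was 0.00, with the linker histone HIS1-3 at 0.18 ± 0.13 (SE; adjusted p = 0.478) and HTB4 at -0.05 ± 0.057 (SE; adjusted p = 0.68). STZ, the 1 tested touch and wounding marker, differed by -0.06 ± 0.073 (SE; adjusted p = 0.676), the 1 gene matched to the ribosome list, AT1G77750, by 0.05 ± 0.059 (SE; adjusted p = 0.689), and the root marker EXPA18 by -0.08 ± 0.13 (SE; adjusted p = 0.768). The nitrogen assimilation and heat shock lists matched no named gene, although the small heat shock gene ATHSP22.0, given above, was tested outside them. With 1 to 5 members in many of these lists, their counts describe those genes alone.

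The night-day difference was also taken in each cycle apart. All 147 night genes and all 192 day genes had the same direction in both cycles, whereas 60.0% of all tested genes had. The same arrays had chosen these genes, so this is a description. The median was 1.32-fold in the first cycle and 1.36-fold in the second for night genes, and 1.41-fold and 1.28-fold for day genes. The first-cycle difference was the larger for 81 of 147 night genes and 146 of 192 day genes. Without the 28 h array, which was scanned alone, these numbers were 69 and 128, and without the 24 h array they were 85 and 156. The first-cycle day side then held CT0 alone or CT4 alone, while the second cycle kept both times. Circadian times were thus not matched in these counts, and the part of the scan was not tested. For AT5G35970, for example, the log2 difference was -1.86 in the first cycle and -0.75 in the second, while for AT4G34950 it was 1.46 and 1.39. In the limma test of whether the difference changed between cycles, 0 of 9161 genes passed the threshold (935 at an unadjusted p under 0.05, lowest adjusted p = 0.246). With 2 arrays per side and cycle, that count cannot show that the differences repeated. Over all tested genes the differences of the 2 cycles correlated at 0.45, and the second cycle alone gave 0 genes past the threshold.

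**Figure D4:**
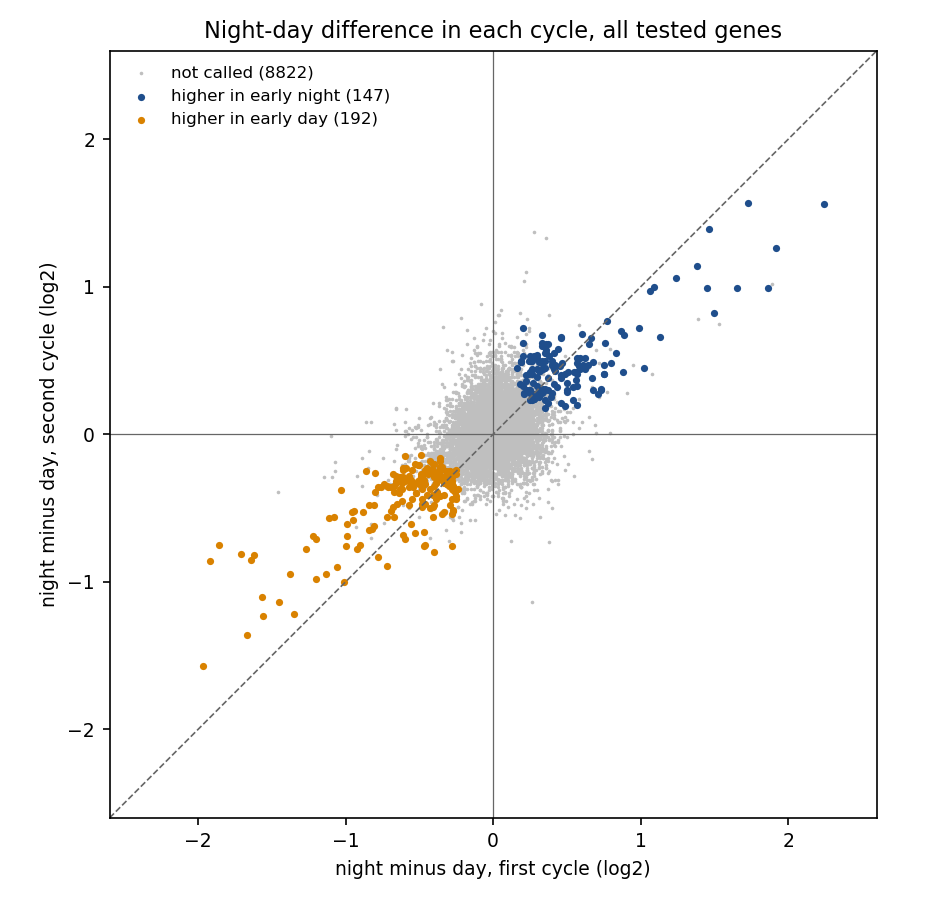
Log2 difference, early night minus early day, in the first cycle (horizontal axis) and the second cycle (vertical axis) for the 9161 tested genes, with the dashed line at equality. Genes past the threshold (blue for night, orange for day) lie at the lower left and the upper right, the same direction in each cycle.

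Within each side the 2 circadian times were not alike. Of the night genes, 73 (49.7%) were higher at CT12 than at CT16 in both cycles and 28 (19.0%) the reverse, against 29.5% and 26.3% of all tested genes. Of the day genes, 72 (37.5%) were higher at CT4 than CT0 in both cycles and 47 (24.5%) the reverse, against 28.0% and 31.4%. The mean level was highest at CT12 for 81 night genes and at CT16 for 47, and at CT8 or CT20, outside the comparison, for 12 and 7. Day genes were highest at CT4 (95) or CT0 (84), with 12 at CT8 and 1 at CT20. The lowest mean of night genes was at CT4 for 85 of them, and that of day genes at CT12 for 108.

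At CT8 and CT20, which the comparison did not use, the genes on each side fell into different patterns. CT8 was above CT20 in both cycles for 60 night genes (40.8%) and CT20 above CT8 for 49 (33.3%), against 27.9% and 30.0% of all tested genes. DPE1 belonged to the first kind, at 514 and 507 at CT8 and 286 and 342 at CT20. NdhN, a subunit of the chloroplast NDH complex picked after its values were seen, belonged to the second, at 521 and 565 at CT8 and 877 and 787 at CT20. On the day side, CT8 was above CT20 in both cycles for 83 genes (43.2%) and below it for 60 (31.2%). For night and day genes alike, the share with CT20 above CT8 was near the 30.0% of all tested genes. LHCB4.2 was at 6446 and 5997 at CT8 and 3294 and 3933 at CT20, whereas AFR was at 247 and 259 at CT8 and 406 and 409.8 at CT20. With the day mean taken as 0% and the night mean as 100%, the median night gene was at 55.5% at CT8 and 50.8% at CT20, and the median day gene at 50.2% and 57.8%.

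**Figure D5:**
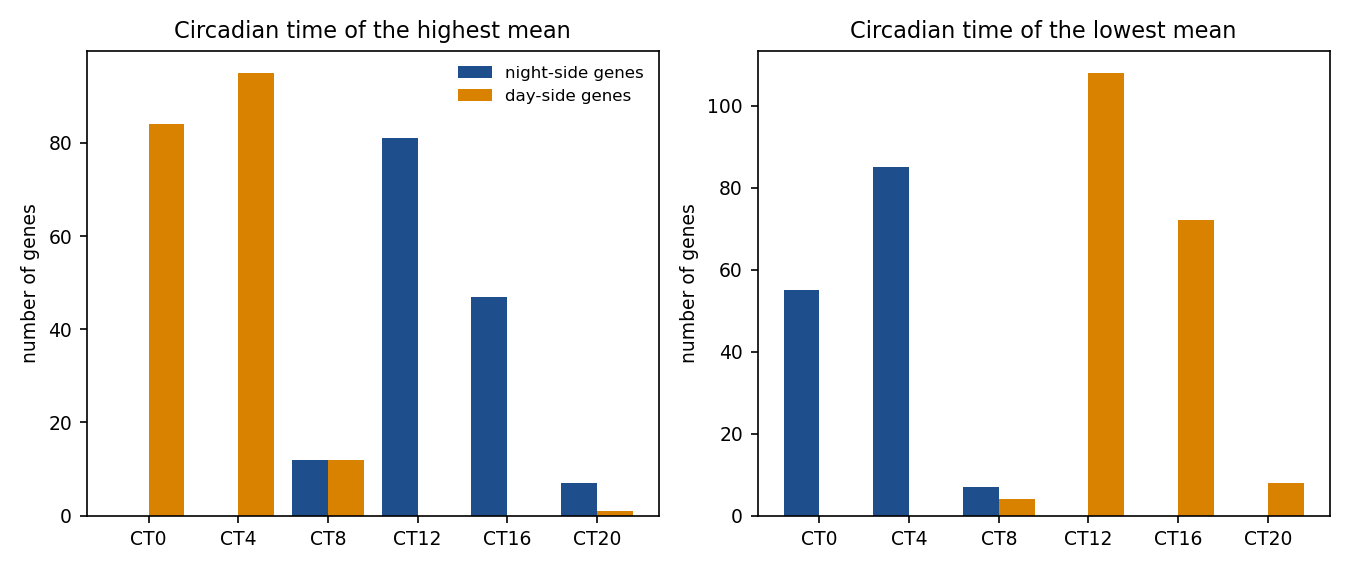
Number of night-side (blue) and day-side (orange) genes whose mean over the 2 cycles was highest (left) or lowest (right) at each circadian time. Night genes were highest mostly at CT12 (81) and CT16 (47), day genes at CT4 (95) and CT0 (84). Peaks at the compared times follow from the choice of the genes, and CT8 and CT20 did not enter it.

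The genes nearest the threshold show how small the differences were there. Just inside it, AT5G18210 differed by 0.34 and NRPA2 by 0.27 on the log2 scale, both at an adjusted p of 0.0495. Just outside, AT1G68850 differed by -0.36 and TBL37 by -0.29, both at 0.0501. Of the 48 genes past the threshold that the rules named, 36 passed it without any one array, and 21 of those 36 also with scan day as a block. These 21 include COR27, AT4G33980, CHL, THIC and PWD of the night side, and AT1G62510, AT2G41250, LHCB4.2, MSRB6 and BGLU40 of the day side. The other 15 of the 36 had adjusted p of 0.0506 to 0.151 with the block. On the night side these were CCL, AT4G30650, AT1G21680, AT3G04550, AT1G12845, MAP1C, DPE1 and UGT84A3, and on the day side AFR, XTH32, ATHSP22.0, AT5G48490, AT1G30455, AT1G65490 and AT5G16030.

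Within the first scan day, where 36 and 40 h were set against 24, 48 and 52 h, the sizes of the leading differences were as follows. Their direction was fixed by the choice of genes without overlap. COR27 was 3.9-fold higher in early night on these arrays (3.73-fold over all 8) and AT4G33980 2.82-fold. CHL was 2.12-fold, THIC 1.93-fold and PWD 1.77-fold higher. On the day side AT1G62510 was 3.86-fold higher, LHCB4.2 2.31-fold, AT2G41250 2.72-fold and MSRB6 1.73-fold. That day held 5 of the 8 arrays, and the part of the scan in the lower count of calls was not tested.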

How the data were processed

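Transcript levels were measured on 12 ATH1 arrays, of which 8 were compared, 4 a side, grouped by the times in the sample labels. The authors deposited linear intensity values of 22810 probe sets, already scaled between arrays. The notes name MAS5 and the methods name dChip for expression, and the program behind this table was not given in the sources used here. Of each deposited array record (other information than expression) only the scan day was used.

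Probe sets were named through the platform annotation and the RefSeq gene table: 13436 with 1 symbol matched and 48 more by locus, 503 with several symbols were left out, and 13415 name 13264 nuclear genes. Before log2 was taken of the deposited values, those under 1 (2 to 12 on an array) were raised to 1. The upper 69% by mean log2 intensity over the 12 arrays were kept, with 1 probe set per gene (the highest mean), leaving 9161 genes. limma 3.58.1 (R 4.3.3) tested night minus day over 8 arrays with both cycles pooled, and the side by cycle interaction, with Benjamini-Hochberg adjustment at 0.05. The fit was tested on simulated data. The array number limits the precision.

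The members and lists were chosen with earlier results of these data known. Named were the 15 largest differences on each side without overlap, the 8 largest with a symbol, up to 5 called and 2 other members of each list, and GI. Lists and genes said to be picked after their values were seen were added outside this rule. A promoter description was not run and genomic coordinates were not used. Alternatives changed the model terms, filter, pseudocount (32), normalization, probe sets, thresholds and arrays. Tables, exact tests and plots were made in Python 3.11.15 with numpy 2.4.6, pandas 2.3.3, scipy 1.17.1 and matplotlib 3.10.9.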

Additional observations from a re-analysis of the deposited data

Results flagged for a closer look

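In 5 of 192 sets of 4 arrays examined (a named gene on 1 side), 1 array lay far from the other 3. Its gap, taken on the log2 scale, was a larger share of the set's whole range than Dixon's 95% critical value. Chance alone gives about 1 such set in 20. In early day, AT1G30455 measured 274.7 at 28 h and 149 to 156 on the other arrays (gap 0.928 of the range), and UGT88A1 measured 1646 at 28 h and 1492 to 1507 on the others (0.895). The 28 h array was the one scanned alone, and the part of the scan in these values was not tested. UGT72E2, a glycosyltransferase that did not pass the threshold with -0.22 ± 0.10 (SE; adjusted p = 0.234), measured 1238 at 52 h of the day side and 881 to 922 on the others (0.868). In early night, scpl50 measured 291 at 64 h and 272 to 273 on the others (0.961), and HYH measured 54.0 at 36 h and 75.0 to 78.2 on the others (0.887).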

How the results depend on the processing

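The count of 339 genes (147 night, 192 day) was 120 (53 and 67) with a linear trend of hours, 37 (13 and 24) with scan day as a block and 28 (10 and 18) in the first scan day alone. The night arrays came on average 12 h later in constant light than the day arrays (50 and 38 h), the second scan day held night arrays only and the third a day array only. Without an intensity filter it was 178 of 13264, over all probe sets 864 of 15695, at an adjusted p under 0.01 it was 87 and at an unadjusted p under 0.05 it was 1873. The first cycle alone gave 138 and the second alone 0 in limma (1711 at an unadjusted p under 0.05, 300 of them among the 339). Leaving out 1 array at a time gave 118 to 307. A cycle term (286), the upper 50% (413), log2 of the intensity plus 32 (368), quantile normalization (348), no _s_at or _x_at probe sets (347) and all 12 arrays (501) stayed within 1.5 times. The interaction with cycle gave 0 genes with no filter, quantile normalization and the intensity plus 32, and 935 at an unadjusted p under 0.05. The labels give no replicate numbers. The cycle term is the block that the hours in the labels allow.

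None of the 60 named genes past the threshold, those added later included, changed sign under any of the 23 alternatives. Of the 60, 38 still passed with the trend, 22 with scan day as a block, 51 with a cycle term and 39 without a filter. Of the 36 others, 7 changed sign. MYC3 went to -0.02 with the trend, -0.06 with scan day as a block or the first scan day alone, and -0.03 in the first cycle. LHCB4.3 ranged from -0.18 to 0.11 over the arrays left out (above 0 without 24, 36 or 60 h) and was 0.15 in the second cycle. PRK ranged from -0.10 to 0.01 (above 0 without 36 h) and was 0.07 in the second cycle. STZ went to 0.03 in the first cycle, EXPA18 to 0.10 with the scan block or first scan day (-0.19 to 0.00 over the arrays left out, highest without 28 h), CHLM to 0.05 in the second cycle and AT5G52660 to 0.19 in the first. Of 825 values of these 36 genes under the alternatives, 33 passed the threshold. The causes were not tested.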

Other observations

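Families with several called members but no list of their own were described after their values were seen. Of 21 tested serine carboxypeptidase-like genes, a family of acyltransferases and peptidases, 3 were higher in early night and 1 in early day, and the median was 0.05. This was 19.0% of the family beside 3.70% of all tested genes, in a family picked because several members had been called. SCPL49 measured 1768 at 36 h, 1548 at 40 h, 1654 at 60 h and 1506 at 64 h in early night and 1108 at 24 h, 1052 at 28 h, 1117 at 48 h and 1212 at 52 h in early day, with no overlap. Its difference was 0.53 ± 0.073 (SE, log2 scale), or 1.44-fold (adjusted p = 0.00261). The gene scpl35 was 1.40-fold higher in early night, a call lost without the 28 h array (adjusted p = 0.0758), and scpl50 was 1.18-fold higher, a call lost whichever of the 8 arrays was left out. On the other side scpl46 was 1.39-fold higher in early day, a call lost without 24, 28, 36, 48, 60 or 64 h (highest adjusted p = 0.128).

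The chloroplast NDH complex carries cyclic electron flow around photosystem I, and its list held subunits and other genes named for it. Of 9 tested genes of this list, 3 were higher in early night and none in early day, with a median of 0.18. Over all tested genes 1.60% were higher in early night and 2.10% in early day, and this list too was picked for its called members. PIFI measured 1565 to 2072 on the night arrays and 1140.5 to 1500.5 on the day arrays, or 1.44-fold (adjusted p = 0.0208). NdhN was 1.41-fold and the RNA editing factor CRR22 1.18-fold higher. None of the 3 passed the threshold without the 28, 36 or 60 h array, nor in the first scan day alone. The subunit NdhS differed in the other direction, by -0.29 ± 0.076 (SE; adjusted p = 0.0573), and the subunit NdhL by 0.04 ± 0.12 (SE; adjusted p = 0.895). Among 10 subunits of the nuclear RNA polymerases, NRPA2 of polymerase I was higher in early night by 0.27 ± 0.067 (SE; adjusted p = 0.0495) on the log2 scale and NRPE7 of polymerase V by 0.31 ± 0.074 (SE; adjusted p = 0.0399). None of the 10 was higher in early day, and the median was 0.11. Beside 1.60% (night) and 2.10% (day) of all tested genes, a day count of none among 10 genes says nothing about the family. This list was picked in the same way. Both calls were lost without any array but 36 h.

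AT2G15020 was 2.63-fold higher in early day although its sides overlapped (195 to 362 in early day, 55.6 to 217 in early night), and its call was lost without 24, 28, 36, 40, 48 or 60 h. Of 3226 pairs of tested genes that are neighbours in the gene table, both were past the threshold in 7, in the same direction in 5. Over all tested genes 3.70% were past the threshold, and nothing is read from the number of pairs. AT1G21670 and AT1G21680 were both higher in early night, by 0.61 and 1.26 on the log2 scale, and the first call was lost without 24, 28, 36, 40, 48 or 60 h. AT4G33985, beside AT4G33980, was higher in early night by 0.32. In 2 pairs the neighbours went opposite ways: AT5G64850 was higher in early day, at -0.85 ± 0.077 (SE; adjusted p = 0.000156), beside DPE1 of the night side, and AT1G09310 (-0.34) lay beside AT1G09320 (0.32). AT5G64850 measured 289 at 24 h, 327 at 28 h, 262 at 48 h and 275 at 52 h in early day and 168 at 36 h, 158 at 40 h, 152 at 60 h and 160.4 at 64 h in early night, with no overlap. Among probe sets that could not be given 1 nuclear gene name, 185 of 7136 were higher in early night and 279 in early day, beside 175 and 225 of 8559 for the named ones in the same fit.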
